A study of Mus musculus with 8 samples.

Results

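Integrins are the adhesion receptors that carry T cells into tissues and hold them there, and 10 genes for their chains were followed across sorted CD4 T cells with and without a transgene for NIK. These genes were Itgae, Itgad, Itgal, Itgav, Itga4, Itga6, Itgb1, Itgb2, Itgb3 and Itgb7, and their probes were taken by the gene symbol of the array platform's annotation. That gave 17 of the 25697 probes on the array, for 9 of the 10 genes, since Itgal had no probe. The array carried 6 probes for Itgae, 3 for Itgad, 2 for Itgb1 and 1 for each of the other 6 genes. After a filter on detection, 14 of the 17 probes were kept among 11526 in all, and 7 integrin genes were tested among 7926. Itga4 and Itgb3 were detected on 0 of 8 arrays. The brightest kept probe stood for its gene, and values are log2 intensities after background correction and quantile normalization.

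An integrin is a pair of one alpha and one beta chain, so that a beta chain shared by several alpha chains sets which receptors a cell can build. In T cells, the beta7 chain pairs with alphaE to bind E-cadherin on epithelium and with alpha4 to bind MAdCAM-1 on gut vessels. The beta2 chain pairs with alphaL to bind ICAM proteins and also with alphaD, alphaM and alphaX, while the beta1 chain pairs with alpha4, alpha6, alphaV and others to bind VCAM-1 and proteins of the extracellular matrix.

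The cells were sorted from bone marrow chimeras of C57BL/6 background, in which marrow of both donors rebuilt the blood of lethally irradiated B6.CD45.1 recipients. One donor was NIKtg/CD4Cre/foxp3RFP, with a Map3k14 transgene at the ROSA26 locus that Cre driven by CD4 sequences switches on, and the other was B6.Thy1.1/Foxp3RFP. Both therefore carried a red reporter (RFP) for Foxp3, the factor that defines regulatory T cells (Treg). The labels place the sort more than 8 weeks after reconstitution and give no age.

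The arrays formed 4 groups of 2. NIKtg Treg were sorted as RFP+Thy1.1-CD4+GFP+ cells and WT Treg as RFP+Thy1.1+CD4+GFP- cells. NIKtg conventional T cells (NIKtg Tconv) were RFP-Thy1.1-CD4+GFP+, and WT Tconv were RFP-Thy1.1+CD4+GFP-. NIKtg and WT cells thus differed in the transgene, Cre, GFP and the Thy1 allele together, and these cannot be told apart. Whether the 2 arrays of a group stand for separate animals is not stated in the labels, so a p-value here covers the spread between arrays alone, and that spread may be technical.

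The promoters of Itgb1 and Itgb7 are shown because these beta chains fell on NIKtg arrays. By their brightest probes, Itgb1 passed in Treg and Itgb7 in Tconv. RefSeq's promoter table (build GRCm38.p6) held 4 of the 10 genes, Itga4, Itgav, Itgb1 and Itgb7. Each entry holds 300 bases, 250 before and 50 after the start that this promoter table uses. For Itgb7 and Itgav the whole entry lies within the gene's listed span. The Itgb1 promoter lies at chr8:128685404-128685703 on the plus strand and the Itgb7 promoter at chr15:102231886-102232185 on the minus strand, and capitals mark the letters that matched a searched motif.
Itgb1: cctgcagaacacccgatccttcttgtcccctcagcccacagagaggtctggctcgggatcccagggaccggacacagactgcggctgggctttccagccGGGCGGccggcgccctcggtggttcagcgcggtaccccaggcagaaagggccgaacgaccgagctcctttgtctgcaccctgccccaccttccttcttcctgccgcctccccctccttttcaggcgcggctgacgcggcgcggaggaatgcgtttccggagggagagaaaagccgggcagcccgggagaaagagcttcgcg
Itgb7: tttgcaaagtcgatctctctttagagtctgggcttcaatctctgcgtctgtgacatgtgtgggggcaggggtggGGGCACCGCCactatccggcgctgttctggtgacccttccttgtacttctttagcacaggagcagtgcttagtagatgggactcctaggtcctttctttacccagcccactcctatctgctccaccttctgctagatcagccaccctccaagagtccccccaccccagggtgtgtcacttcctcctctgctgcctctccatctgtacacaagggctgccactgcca

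The search covered both strands for a kappaB motif (GGG, then any 5 bases, then CC, the kind of site that NF-kB proteins bind), a RUNX motif (TGTGGT), an SP1 motif (GGGCGG) and an ETS motif (CCGGAAG). Itgb7 held 1 match, to the kappaB motif, and Itgb1 held 1, to the SP1 motif. Of the 32851 promoters in the table, 50.8% held the kappaB motif, 35.7% the SP1 motif, 16.8% the RUNX motif and 8.86% the ETS motif, so each match is a common one and describes letters only. Itgb1 was richer in G and C, at 67.3% of its bases, than Itgb7 at 56.3%.

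Checks of the arrays came out as follows. Foxp3 separated the sorts, with 13.22 and 13.38 in NIKtg Treg and 13.51 and 13.59 in WT Treg, against 6.11 and 7.06 in NIKtg Tconv and 8.10 and 8.86 in WT Tconv. Map3k14 itself was not higher on the arrays labelled NIKtg, with a log2 difference of 0.09 in Treg (adjusted p = 0.578) and -0.52 in Tconv (adjusted p = 0.0105). Where its 1 probe lies in the transcript is unknown here, so "NIKtg" stands for the label throughout. Nfkb2, the precursor that NIK acts on, rose by 1.01 in Treg (adjusted p = 0.00216) and by 1.45 in Tconv (adjusted p = 0.000333). Between 9826 and 10794 probes were detected per array. The NIKtg Treg arrays were the dimmest before normalization, with mean intensities of 461.1 and 473.6, against 556.9 to 776.8 on the other 6. Each subset is a bulk sample, in which fewer cells of a type and less RNA per cell cannot be told apart.

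In Treg, 3 of the 7 integrin genes tested fell on the NIKtg arrays and 0 rose, and 4 did not pass the threshold of 0.05 on the adjusted p. Itgb1, Itgae and Itgb2 were the 3 that fell. Over all genes tested 19.7% passed in this comparison, 10.3% as higher and 9.37% as lower. The integrin count was 1 without WT Treg 1 or WT Treg 2, when Itgb1 alone passed, and 5 without NIKtg Treg 2. The count over all genes moved too, being 494 when WT Treg 1 was left out, 517 for WT Treg 2 and 1550 for NIKtg Treg 2, against 1559 on all arrays. The 2 arrays of a group lay on one side of the other group's for 6 of the 7 integrin genes, all but Itgad, and for 65.9% of all genes. The median log2 difference was -0.65 over the 7 integrin genes and 0.06 over all genes.

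In Tconv, 2 of the 7 rose on the NIKtg arrays (Itgad and Itgb2), 2 fell (Itga6 and Itgb7) and 3 did not pass. Over all genes 30% passed in this comparison, 12.8% as higher and 17.2% as lower. The groups did not overlap for 6 of the 7 genes, all but Itgae, and for 70.1% of all genes. The median log2 difference was -0.29 over the 7 genes and -0.08 over all genes. With the brightest probe standing for each gene, Itgb2 was the one integrin gene that passed in both subsets, and it did so in opposite directions. A second, dimmer Itgb1 probe passed narrowly as lower in Tconv as well. With median centring in place of quantile normalization, 8.2% of the calls over all genes were higher in NIKtg Treg, in place of 52.3%, and 68.0% in NIKtg Tconv, in place of 42.8%, while the integrin genes named here as changed kept their directions.

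**Figure D1:**
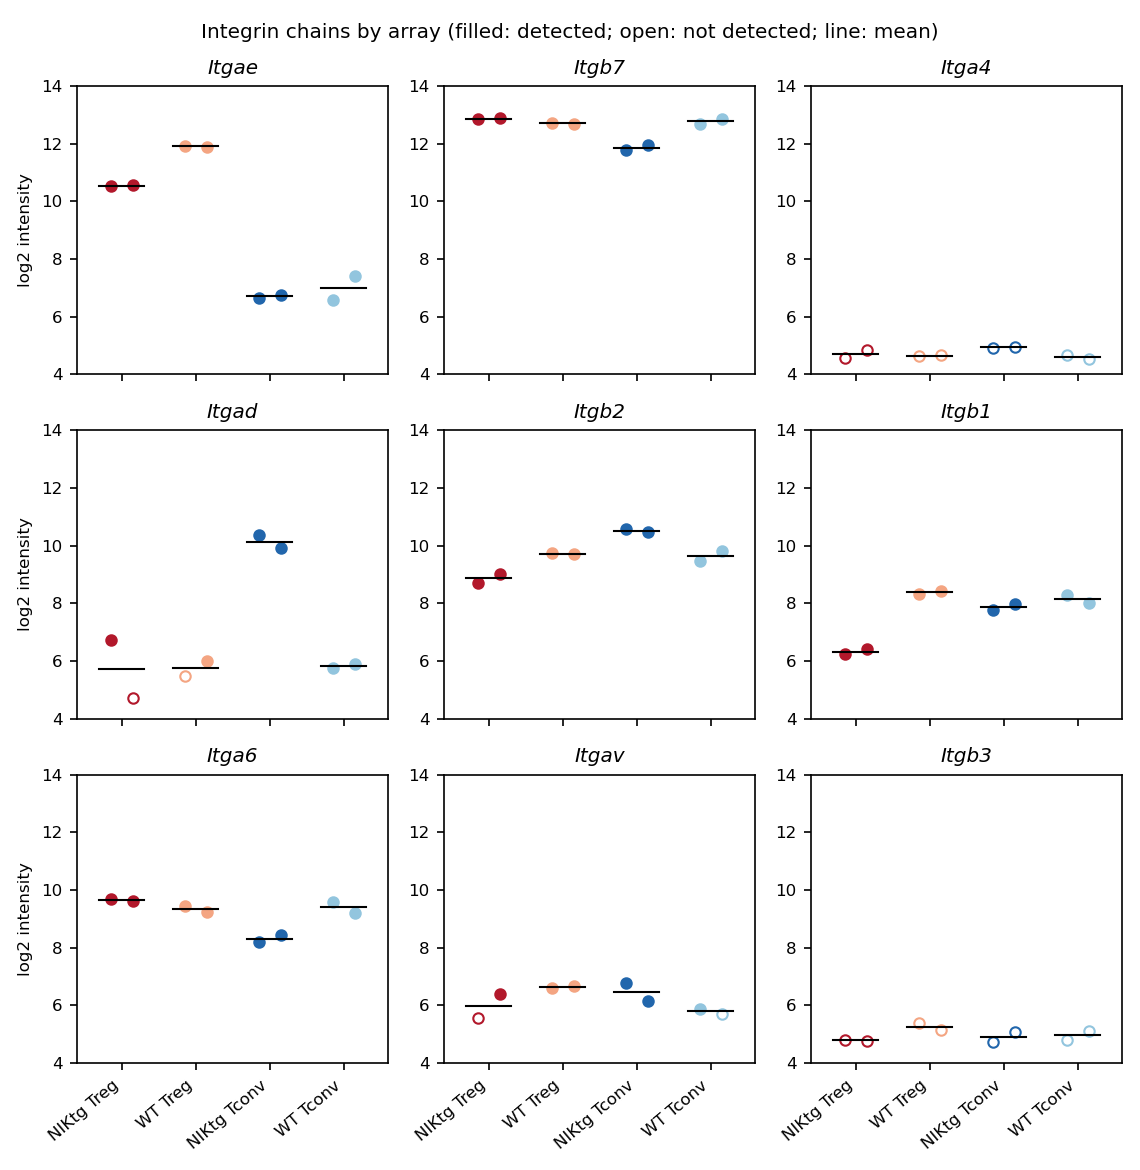
Log2 intensity (vertical axis) of 9 integrin genes on each of the 8 arrays, by group, with filled points for detected values, open points for undetected ones and a line for the mean of 2 arrays. Itgae separates both Treg groups from both Tconv groups, Itgad stands out on the NIKtg Tconv arrays at 10.36 and 9.92, and Itgb1 is low on the NIKtg Treg arrays at 6.24 and 6.41. Itga4 and Itgb3 have open points only.

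Itgae encodes alphaE (CD103), which tethers lymphocytes to epithelium and marks a share of Treg. Its lead probe read 10.52 and 10.56 in NIKtg Treg, against 11.92 and 11.88 in WT Treg. Both NIKtg Treg arrays were below both WT Treg arrays. The log2 difference was -1.36 (SE 0.23, adjusted p = 0.00952), a 2.57-fold lower level in NIKtg Treg. That call was lost without WT Treg 1 (-1.34, adjusted p = 0.0588) or without WT Treg 2 (-1.39, adjusted p = 0.0512), while the size of the difference hardly moved.

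In Tconv, the lead Itgae probe read 6.65 and 6.76 on the NIKtg arrays, against 6.59 and 7.42 on the WT arrays. These groups overlapped, and the difference of -0.30 did not pass (SE 0.23, adjusted p = 0.37). It depended on single WT arrays. Without WT Tconv 1 it was -0.71 and passed (adjusted p = 0.0147), and without WT Tconv 2 it was 0.12.

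All 6 Itgae probes were lower in NIKtg Treg than in WT Treg, and each passed in a fit over single probes, in which 20.8% of 11526 probes passed. Their fitted log2 differences ran between -3.35 and -1.32, the value of -3.35 being against a group in which that probe was not detected. The 3 probes annotated to a transcript present in the RefSeq gene table gave differences between -1.87 and -1.32, and the other 3, annotated to a transcript that this table does not list, gave differences between -3.35 and -1.49. Of those other 3, ILMN_2628899 read 5.24 and 4.89 in NIKtg Treg, where it was not detected, against 8.61 and 8.22 in WT Treg. Its level was thus at least 5.80-fold lower in NIKtg Treg. That probe passed the detection filter through the WT Treg arrays alone, so its direction was tied to the filter. ILMN_2628900 read 6.20 and 6.78 in NIKtg Treg and 8.75 and 8.60 in WT Treg. In Tconv, where 29.2% of all probes passed, 0 of the 6 did, and 4 of them were undetected in both Tconv groups.

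Itgb7 encodes the beta7 chain, the partner of alphaE. It read 12.85 and 12.88 in NIKtg Treg, against 12.71 and 12.70 in WT Treg. The NIKtg Treg arrays were slightly above the WT ones, and the difference of 0.17 did not pass (SE 0.11, adjusted p = 0.329, 95% interval -0.10 to 0.43). Under median centring in place of quantile normalization it was -0.05.

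In Tconv the same probe read 11.77 and 11.94 on the NIKtg arrays, against 12.68 and 12.86 on the WT arrays. The groups did not overlap, and Itgb7 fell by 0.91 in NIKtg Tconv (SE 0.11, adjusted p = 0.00154), to a level 1.88-fold lower than in WT Tconv. Itgae and Itgb7, which together make one receptor, thus passed in different subsets, Itgae in Treg and Itgb7 in Tconv. Itgae was dim in Tconv, however, and its lead probe gave -0.71 there without WT Tconv 1. The calls alone therefore do not show that Itgae was unchanged in Tconv.

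Itga4, the other partner of beta7 and also of beta1, lay between 4.53 and 4.95 on all 8 arrays and was detected on 0 of them. One probe was available for it, so a level of alpha4 RNA could not be given in any group.

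Itgb2 encodes beta2 (CD18), the chain of leukocyte integrins that bind ICAM proteins. It read 8.72 and 9.01 in NIKtg Treg, against 9.74 and 9.71 in WT Treg. The groups did not overlap, and Itgb2 fell by 0.86 in NIKtg Treg (SE 0.15, adjusted p = 0.0105), a 1.81-fold lower level. The call was lost without WT Treg 1 (-0.84, adjusted p = 0.0636), WT Treg 2 (-0.87, adjusted p = 0.0559) or NIKtg Treg 1 (-0.71, adjusted p = 0.0525).

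In Tconv, Itgb2 read 10.58 and 10.46 on the NIKtg arrays, against 9.46 and 9.80 on the WT arrays. It rose by 0.89 in NIKtg Tconv (SE 0.15, adjusted p = 0.00516), a 1.85-fold higher level, with no overlap. That call held with each array left out in turn.

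Itgad encodes alphaD, a partner of beta2 best known from macrophages and some lymphocytes, and it showed the widest difference among the integrin genes in Tconv. Its lead probe read 10.36 and 9.92 in NIKtg Tconv, against 5.76 and 5.91 in WT Tconv. Both NIKtg Tconv arrays stood far above every other array. The log2 difference was 4.30 (SE 0.56, adjusted p = 0.00186), a 19.8-fold higher level in NIKtg Tconv. With the authors' normalized intensities, the difference on the log2 scale was 3.07, and with an offset of 50 it was 3.67. The WT Tconv values lay just above the lowest detected values of those arrays, 5.60 and 5.72. The size of the fold thus depends on the floor.

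A second Itgad probe read 9.93 and 9.57 in NIKtg Tconv and 5.88 and 5.38 in WT Tconv, where it was detected on 1 of 2 arrays. That is at least 15.4-fold higher in NIKtg Tconv (log2 difference 4.12, adjusted p = 0.000438). The third Itgad probe was detected on 1 of 8 arrays, NIKtg Tconv 1 at 6.46, and was not tested. All 3 probes thus read highest on a NIKtg Tconv array.

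In Treg, Itgad lay at the edge of detection, with 6.73 and 4.72 in NIKtg Treg and 5.48 and 6.01 in WT Treg, each group being detected on 1 of 2 arrays. The difference of -0.02 had an SE of 0.56 (adjusted p = 0.981, 95% interval -1.33 to 1.29), and a change of either sign within that interval was not detectable. Without NIKtg Treg 2, which was undetected, it was 0.99 (adjusted p = 0.0419).

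Markers of other blood cells were read beside beta2 and alphaD, since such cells also use these chains. Of 8 myeloid markers 5 had a probe and 4 were tested. The summed intensity of the myeloid probes lay between 251 and 288 in NIKtg Treg and between 465 and 466 in WT Treg, and between 130 and 163 in NIKtg Tconv and between 295 and 362 in WT Tconv. In each NIK comparison 3 of the 4 (Adgre1, Fcer1g and Tyrobp) were lower on the NIKtg arrays. Over all genes 9.37% were lower in Treg and 17.2% in Tconv. Adgre1 and Tyrobp were detected on WT arrays alone, so they passed the filter only where they were high. Lyz2 did not pass, with 0.58 in Treg (adjusted p = 0.169) and -0.29 in Tconv (adjusted p = 0.456). For Lyz2 both NIKtg Treg arrays were above both WT Treg arrays. Cd14 was detected on 0 arrays. The myeloid alpha chains Itgam and Itgax, partners of the same beta2, were also detected on 0 arrays.

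All 7 CD8 and NK cell markers had a probe. They summed to between 4940 and 5097 in NIKtg Treg and between 4348 and 4811 in WT Treg, and to between 15234 and 18823 in NIKtg Tconv and between 7720 and 10456 in WT Tconv. Of the 5 tested, in Tconv 1 was higher (Nkg7, by 2.43, adjusted p = 0.00387) and 2 were lower (Cd8b1 and Klrb1c). Over all genes 12.8% were higher and 17.2% lower in that comparison. Klrb1c was detected on the WT Tconv arrays alone, and Cd8a and Ncr1 were detected on 0 arrays. Of 7 B cell markers 6 had a probe, summing to between 483 and 532 in NIKtg Treg and between 664 and 691 in WT Treg, and to between 467 and 584 in NIKtg Tconv and between 169 and 180 in WT Tconv. Of the 2 tested, in Tconv Cd22 rose by 2.80 in NIKtg Tconv (adjusted p = 0.00155) and Cd79b fell by 0.61 (adjusted p = 0.00814), and Pax5 was detected on 0 arrays. The part of such cells in the Itgad and Itgb2 values was not tested.

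Markers of the sorted cells themselves also moved. Of 7 T cell markers 6 were tested, summing to between 41074 and 43200 in NIKtg Treg and between 51066 and 53879 in WT Treg, and to between 52827 and 53954 in NIKtg Tconv and between 45557 and 46371 in WT Tconv. In Treg 3 of the 6 (Cd3g, Cd5 and Cd28) were lower on the NIKtg arrays, and in Tconv 1 (Cd3g) was higher. Over all genes 9.37% were lower in Treg, and in Tconv 12.8% were higher and 17.2% lower. The 5 Treg markers summed to between 18711 and 22072 in NIKtg Treg and between 29089 and 31225 in WT Treg, and to between 2388 and 2471 in NIKtg Tconv and between 2501 and 2740 in WT Tconv. In Treg 2 of the 5 were lower on the NIKtg arrays, with log2 differences of -0.96 for Ctla4 (adjusted p = 0.00688) and -1.003 for Tnfrsf18 (adjusted p = 0.0122). In Tconv 3 of the 5 were lower, with -1.89 for Foxp3 (adjusted p = 0.00604), -1.92 for Il2ra (adjusted p = 0.00769) and -0.64 for Ikzf2 (adjusted p = 0.0327). The part of these shifts in the integrin values was not tested.

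**Figure D2:**
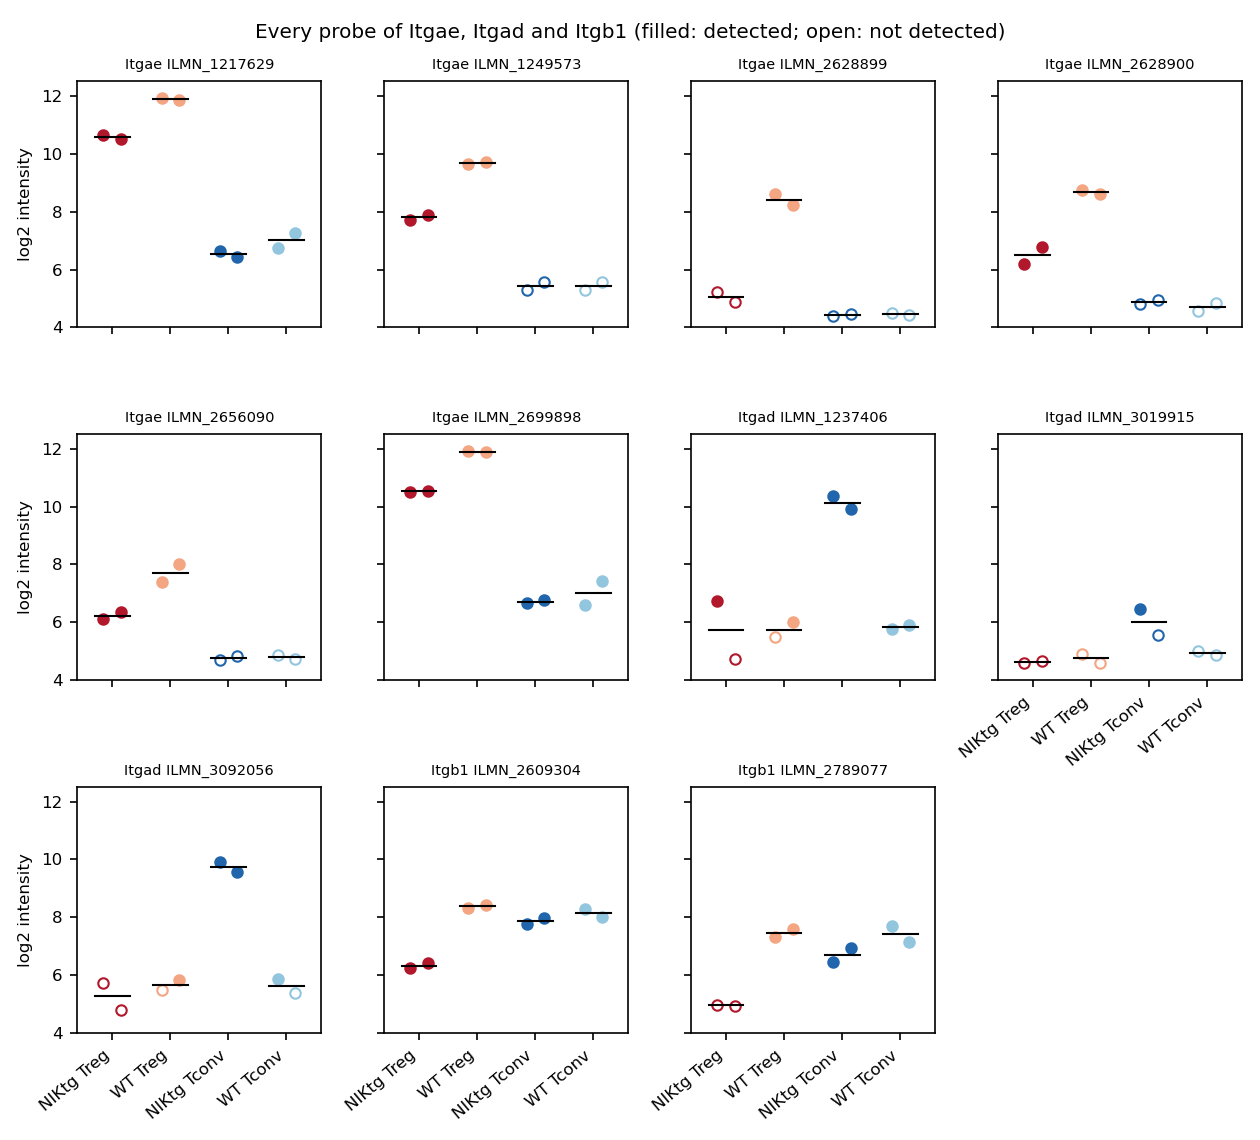
Log2 intensity (vertical axis) of every probe of Itgae (6), Itgad (3) and Itgb1 (2) on the 8 arrays, with filled points for detected values, open points for undetected ones and lines for means of 2 arrays. All 6 Itgae probes are highest in WT Treg, 2 Itgad probes stand above 9.5 on the NIKtg Tconv arrays alone, and both Itgb1 probes are lowest in NIKtg Treg.

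Itgb1 encodes beta1, the chain shared by most matrix receptors and by the VCAM-1 receptor of T cells. It read 6.24 and 6.41 in NIKtg Treg, against 8.34 and 8.44 in WT Treg. The groups were far apart, and Itgb1 fell by 2.07 in NIKtg Treg (SE 0.14, adjusted p = 0.000553), a 4.18-fold lower level. With the authors' normalized intensities, Itgb1 fell by 1.34 on the log2 scale. It had the smallest adjusted p of the 7 genes in Treg, and the call held with each array left out.

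The second Itgb1 probe read 4.99 and 4.94 in NIKtg Treg, where it was not detected, against 7.31 and 7.59 in WT Treg. That is at least 2.98-fold lower (log2 difference -2.49, adjusted p = 0.00138). Both probes thus placed NIKtg Treg below the other groups.

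In Tconv, Itgb1 read 7.78 and 7.97 on the NIKtg arrays, against 8.30 and 8.02 on the WT arrays. The NIKtg arrays were a little below the WT ones, and the difference of -0.29 did not pass (SE 0.14, adjusted p = 0.147, 95% interval -0.61 to 0.03). The probes disagreed on the call here, since the second one gave -0.72 and passed narrowly (adjusted p = 0.0483) while the lead probe in the same fit did not (adjusted p = 0.158).

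Itga6 encodes alpha6, a laminin receptor chain that pairs with beta1. It read 9.69 and 9.63 in NIKtg Treg, against 9.45 and 9.23 in WT Treg, a difference of 0.32 that did not pass (SE 0.16, adjusted p = 0.192). In Tconv it read 8.19 and 8.43 on the NIKtg arrays, against 9.58 and 9.21 on the WT arrays. The Tconv groups did not overlap, and Itga6 fell by 1.08 in NIKtg Tconv (SE 0.16, adjusted p = 0.003), a 2.12-fold lower level. By their lead probes Itga6 and its partner Itgb1 passed in different subsets, but the second Itgb1 probe passed narrowly as lower in Tconv too.

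Itgav encodes alphaV, which pairs with several beta chains and, in some of these pairs, frees latent TGF-beta. It was dim, with 5.56 and 6.41 in NIKtg Treg (detected on 1 of 2) and 6.61 and 6.67 in WT Treg, and with 6.78 and 6.13 in NIKtg Tconv and 5.87 and 5.72 in WT Tconv (detected on 1 of 2). In neither subset did the groups overlap, and neither difference passed, at -0.65 in Treg (SE 0.29, adjusted p = 0.156) and 0.67 in Tconv (SE 0.29, adjusted p = 0.127). With 1 array left out the Treg difference ran between -1.07 and -0.23, and it passed at -1.07 without NIKtg Treg 2 (adjusted p = 0.0284). The Tconv difference ran between 0.34 and 0.99, and it passed at 0.67 without either NIKtg Treg array (adjusted p = 0.0473). Both passed under median centring, at -1.01 (adjusted p = 0.00279) and 0.92 (adjusted p = 0.00532). Itgb3, which pairs with alphaV and with the platelet chain alphaIIb, lay between 4.71 and 5.39 and was detected on 0 arrays, as were 5 of the 6 platelet markers with a probe.

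**Figure D3:**
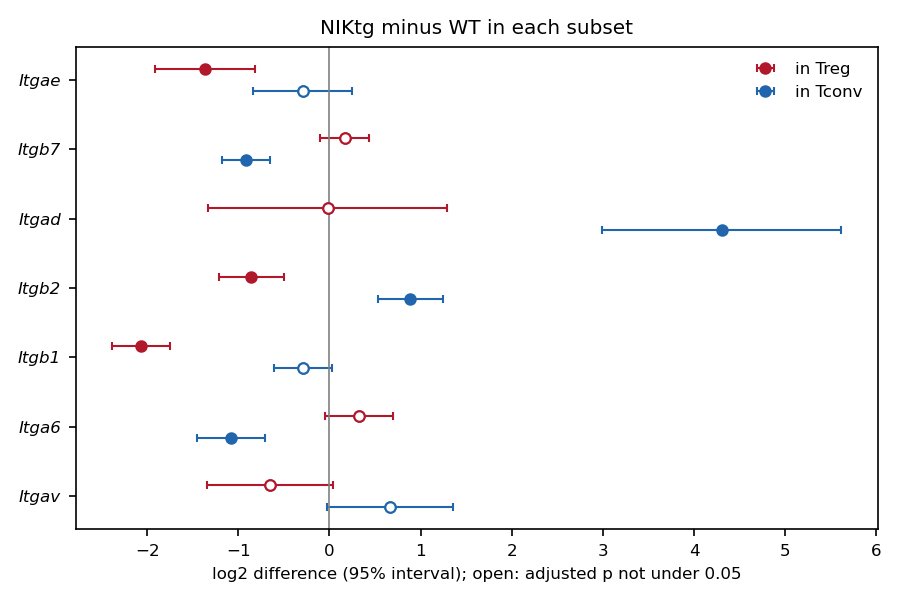
NIKtg minus WT on the log2 scale (horizontal axis) for the 7 integrin genes tested, in Treg (red) and in Tconv (blue), with 95% intervals, filled where the adjusted p was under 0.05. Itgb2 lies on opposite sides of 0 in the subsets at -0.86 and 0.89, Itgad is at 4.30 in Tconv and -0.02 in Treg, and Itgb1 and Itgae are filled only in Treg.

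The NIKtg minus WT difference was then compared between the subsets. It differed for all 7 genes tested, with 2 more positive in Treg and 5 more negative, where 39% of all genes passed, 23% as more positive and 16% as more negative. With median centring 14.8% of the calls over all genes were more positive, in place of 59.0%, and Itgb7 was lost (0.77, adjusted p = 0.0519). Itgb2 had a difference between the subsets of -1.74 (SE 0.21, adjusted p = 0.00142) and Itgb1 of -1.78 (SE 0.19, adjusted p = 0.000946). Itgad gave -4.33 (SE 0.79, adjusted p = 0.00579), which ran between -5.33 and -3.32 with 1 array left out, and each Treg group behind it was detected on 1 of 2 arrays. For Itga6 it was 1.40 (SE 0.23, adjusted p = 0.00357) and for Itgb7 1.08 (SE 0.16, adjusted p = 0.00268), both being lower in NIKtg Tconv.

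The other 2 genes passed by a small margin. Among probes, all 14 passed in this comparison, 2 more positive and 12 more negative in Treg, where 40.2% of all probes passed. The 12 include the Itgae probes that were undetected in both Tconv groups, where no change could be read. Their values here repeat the difference in Treg and are no added support. ILMN_2628899, one of them, also passed the detection filter through the WT Treg arrays alone. Itgae gave -1.07 (SE 0.33, adjusted p = 0.0381) and Itgav -1.32 (SE 0.42, adjusted p = 0.0407). Each lost the call in 6 of the 8 fits that left out 1 array, and the count of 7 genes then ran between 5 and 6. The Itgae difference ran between -1.48 and -0.66 over the 8 fits. Its extremes came without WT Tconv 2 and without WT Tconv 1, where the call was kept, and it lay between -1.12 and -1.01 in the 6 fits that lost it. The Itgav difference ran between -1.74 and -0.89 and was kept without NIKtg Treg 2 or NIKtg Tconv 2. Itgav was also lost with the replicate number as a block (adjusted p = 0.0571), and both genes were lost with no filter on dim probes.

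Treg and Tconv were compared within each genotype as well. Among NIKtg cells, 6 of the 7 integrin genes differed between the subsets, 3 higher and 3 lower in Treg, where 39.8% of all genes passed, 23% as higher and 16.8% as lower. With median centring 10.5% of those calls over all genes were higher, in place of 57.8%, and all 7 integrin genes passed. Among WT cells 1 of the 7 differed (2 without either NIKtg Treg array), where 23.9% of all genes passed, 11.1% as higher. The medians over the 7 genes were -0.47 in NIKtg cells and 0.09 in WT cells, against 0.08 and -0.06 over all genes. The groups did not overlap for 6 of the 7 genes in NIKtg cells, all but Itgav, and for 3 of the 7 in WT cells, where 74.2% and 66.3% of all genes did not. These comparisons share arrays with those of NIKtg against WT and are not independent of them.

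Itgae was the gene that differed in both genotypes. It was 3.83 higher in NIKtg Treg than in NIKtg Tconv (SE 0.23, adjusted p = 6.35e-05), a 14.2-fold difference, and 4.90 higher in WT Treg than in WT Tconv (SE 0.23, adjusted p = 3.11e-05), a 29.8-fold difference. Over single probes, 41% of all probes passed between the NIKtg subsets and 21% between the WT subsets. The 2 Itgae probes detected in every group were higher in Treg by 3.83 and 4.03 on the log2 scale in NIKtg cells and by 4.90 and 4.88 in WT cells. The other 4 were detected on 0 Tconv arrays and give bounds alone. They passed the detection filter through Treg arrays only. Their direction between the subsets was thus tied to the filter and is no added support. In WT cells these 4 probes were at least 4.15-, 6.73-, 8.07- and 16.2-fold higher in Treg. In NIKtg cells 3 of them were at least 1.59-, 1.90- and 4.75-fold higher, and ILMN_2628899 was below detection in both subsets. By the lead probe the order of the Itgae level was WT Treg, NIKtg Treg and then both Tconv groups, which overlapped. By ILMN_1217629 the Tconv groups did not overlap, with 6.65 and 6.45 in NIKtg Tconv and 6.75 and 7.27 in WT Tconv. That difference of -0.46 did not pass (adjusted p = 0.0913).

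The other 5 genes that passed in NIKtg cells did not pass in WT cells. Itga6 was 1.34 higher in NIKtg Treg than in NIKtg Tconv (adjusted p = 0.000798), with -0.06 between the WT subsets (adjusted p = 0.827). Itgb7 was 1.01 higher (adjusted p = 0.000602), with -0.07 between the WT subsets (adjusted p = 0.709). For both genes the order of means was NIKtg Treg, WT Tconv, WT Treg and then NIKtg Tconv, the first 3 lying close together and NIKtg Tconv below them.

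Itgb2 was 1.65 lower in NIKtg Treg than in NIKtg Tconv on the log2 scale (adjusted p = 0.000274), with 0.09 between the WT subsets (adjusted p = 0.708). Its order was NIKtg Tconv, then both WT groups, which overlapped, then NIKtg Treg. Itgb1 was 1.55 lower (adjusted p = 0.000252), with 0.23 between the WT subsets (adjusted p = 0.272), and NIKtg Treg stood below the other 3 groups. Itgad was at least 13.96-fold lower in NIKtg Treg (adjusted p = 0.00106), with -0.09 between the WT subsets (adjusted p = 0.928), and NIKtg Tconv stood above the other 3 groups.

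Itgav gave -0.47 in NIKtg cells (adjusted p = 0.233) and 0.84 in WT cells (adjusted p = 0.0776), and neither passed. The WT difference passed with the authors' normalized intensities, at 0.39 (adjusted p = 0.0426), and under median centring, at 0.95 (adjusted p = 0.00515). Its order of means was WT Treg, NIKtg Tconv, NIKtg Treg and WT Tconv, with the 2 NIKtg groups overlapping.

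**Figure D4:**
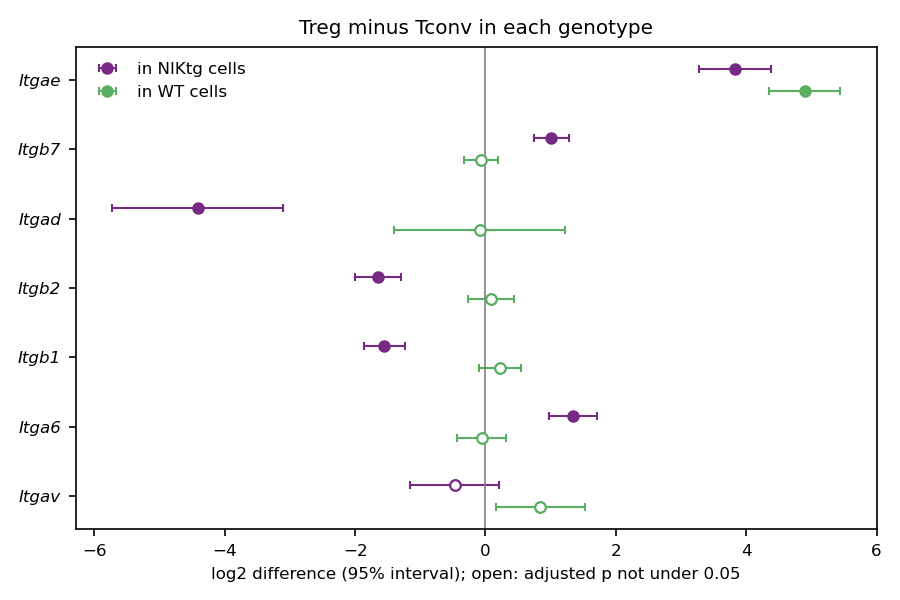
Treg minus Tconv on the log2 scale (horizontal axis) for the 7 integrin genes tested, in NIKtg cells (purple) and in WT cells (green), with 95% intervals, filled where the adjusted p was under 0.05. Itgae is far to the right in both genotypes at 3.83 and 4.90. The green points of the other 6 genes lie within 1 log2 unit of 0 and are open, whereas 5 of the 6 purple ones are filled.

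Of 16 further integrin chains, 14 had a probe and 2 were tested, Itga7 and Itga3. Neither passed for NIKtg against WT, Itga7 with 0.25 in Treg (adjusted p = 0.423) and 0.61 in Tconv (adjusted p = 0.0634), and Itga3 with 0.04 (adjusted p = 0.896) and -0.24 (adjusted p = 0.368). Itga7, a laminin receptor chain, was at least 2.32-fold lower in NIKtg Treg than in NIKtg Tconv (adjusted p = 0.00176) and at least 2.02-fold lower in WT Treg than in WT Tconv (adjusted p = 0.00929). It passed the detection filter through the Tconv groups, where it was high, so this direction was tied to the filter.

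Ligands of these integrins came next, with 8 of 19 listed genes tested. In Treg 1 was higher on the NIKtg arrays and 4 were lower, with a median of -0.45, against 10.3% higher, 9.37% lower and a median of 0.06 over all genes. Vcam1, the ligand of the alpha4/beta1 pair, fell by 1.35 in NIKtg Treg (SE 0.21, adjusted p = 0.00688), and the laminin chain Lamc1 fell by 1.19 (SE 0.19, adjusted p = 0.00703). Icam2, a ligand of the alphaL/beta2 pair, rose by 0.50 (SE 0.13, adjusted p = 0.0355). Cdh1, which encodes E-cadherin, passed as lower, but it was below detection in both Treg groups.

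In Tconv 1 ligand was higher and 1 lower, with a median of -0.17, where 30% of all genes passed with a median of -0.08. Cdh1, the ligand counted as higher, was at least 1.43-fold higher in NIKtg Tconv (adjusted p = 0.00205). It was detected in no other group, so it passed the detection filter only through the group where it was high. Its direction was thus tied to the filter. Icam2 fell by 0.42 in NIKtg Tconv (SE 0.13, adjusted p = 0.0463). Icam2 thus passed in both subsets with opposite signs, as Itgb2 did, but with the signs the other way round. Lamc1 was at least 4.49-fold higher in WT Treg than in WT Tconv (adjusted p = 8.48e-05), one of 2 ligands higher and 1 lower there, where 23.9% of all genes passed. Lamc1 was detected on no Tconv array, so it too passed the filter only through the groups where it was high.

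Genes that switch integrins on from inside the cell or tie them to actin were listed too, and 35 of 47 were tested. In Treg 6 were higher and 5 lower on the NIKtg arrays, with a median of 0.03, and 19.7% of all genes passed with a median of 0.06. Fermt3 (kindlin-3), which binds beta chain tails and activates them, fell by 0.82 in NIKtg Treg (SE 0.16, adjusted p = 0.013). The adhesion kinase gene Ptk2b fell by 0.87 (SE 0.16, adjusted p = 0.0128), and Parva, an actin-linking parvin, rose by 0.81 (SE 0.16, adjusted p = 0.0166).

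In Tconv 4 of these genes were higher and 11 lower, with a median of -0.13, beside 12.8% higher, 17.2% lower and a median of -0.08 over all genes. Cd47, an integrin-associated protein, fell by 0.95 in NIKtg Tconv (SE 0.12, adjusted p = 0.00162), Ptk2b by 1.12 (SE 0.16, adjusted p = 0.0028), and the adaptor genes Skap2 and Cytip by 0.99 (adjusted p = 0.00356) and 0.81 (adjusted p = 0.00376). Ptk2b fell in both subsets. In WT cells 2 were higher and 8 lower in Treg than in Tconv, where 11.1% and 12.8% of all genes were, among them Rasgrp2, an activator of Rap1 upstream of integrins, lower by 1.33 (log2 difference -1.33, adjusted p = 0.00033).

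TGF-beta is known to induce Itgae, and 8 of 11 listed genes for its receptors, SMAD proteins and RUNX factors were tested. In Treg 0 were higher and 2 lower on the NIKtg arrays. Tgfbr1, the signalling receptor, fell by 0.79 (SE 0.20, adjusted p = 0.0311) and Runx1 by 0.61 (SE 0.16, adjusted p = 0.0347). In Tconv 0 were higher and 2 lower, Tgfbr3 by 0.97 on the log2 scale (log2 difference -0.97, adjusted p = 0.00151) and Tgfbr2 with -0.35 (adjusted p = 0.0378). The medians were -0.12 in Treg and -0.31 in Tconv, against 0.06 and -0.08 over all genes, of which 19.7% passed in Treg and 30% in Tconv.

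Other homing and adhesion genes had 16 of 22 tested. In Treg 3 were higher and 5 lower on the NIKtg arrays, with a median of -0.33, and in Tconv 3 were higher and 6 lower, with a median of 0.01. Over all genes 19.7% passed in Treg with a median of 0.06, and 30% in Tconv with a median of -0.08. In NIKtg Treg the chemokine receptor gene Cxcr3 fell by 2.77 (adjusted p = 0.00091), Cd44, a hyaluronan receptor, by 1.21 (adjusted p = 0.00399), and Ccr8 was at least 1.81-fold lower (adjusted p = 0.00025). Ccr8 was detected in WT Treg but on no NIKtg Treg or WT Tconv array. It passed the detection filter through WT Treg, where it was high, so this direction was tied to the filter. In NIKtg Tconv Cxcr3 rose by 1.47 (adjusted p = 0.00301), Cxcr4 rose by 1.35 (adjusted p = 0.000555), and Ccr7, the receptor for lymph node entry, fell by 1.93 (adjusted p = 0.00154).

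The genes whose profile over the 8 arrays lay nearest to an integrin gene were found by the root mean square difference of mean-centred log2 values, which describes these arrays only. For Itgae they were Gbp2b at 0.309, Cd83 at 0.613, Ikzf4 at 0.64, Gm5796 at 0.708 and Il2ra at 0.727. For Itgb1 they were Trim2 at 0.276, Gm20747 at 0.294, Gcnt1 at 0.31, Ankrd27 at 0.335 and Sec23b at 0.347. For Itgb7 they were closer, with Pik3r1 at 0.0712, Plcb2 at 0.083, Tpcn1 at 0.0882, Plod3 at 0.0958 and Dnajc4 at 0.103, and Itgb7 itself varied less over the arrays (SD 0.438) than Itgb1 (0.87) and Itgae (2.4). Gbp2b followed the order of Itgae, with group means of 1.35 in NIKtg Treg and 2.83 in WT Treg, against -2.42 in NIKtg Tconv and -1.76 in WT Tconv around its own mean.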

How the data were processed

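RNA of 4 groups of sorted cells was measured on 8 one-colour Illumina arrays, 2 per group. Per the labels' protocols, RNA was extracted with an RNeasy mini kit and labelled with a MessageAmp Premier kit. Per the submitters' processing notes, GenomeStudio 2010.1 was used. The authors deposited unnormalized intensities with, per the file headers, a detection p-value for each, and a table of normalized intensities on a linear scale. Their normalization method is not stated there. Their medians lay between 118.6 and 118.8 and their ranks matched the unnormalized column of the same array, and they served as an alternative.

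With limma 3.58.1 in R 4.3.3, background was corrected by nec with an offset of 16, using negative controls that the detection p implies, and log2 values were taken after quantile normalization. A probe was kept if its detection p was under 0.01 on 2 or more arrays. The platform annotation gave 1 symbol to 23978 probes, several to 0, and did not list 1719. The brightest kept probe stood for a gene. A model with 4 group means was fitted to all arrays (lmFit and eBayes, two-sided, 4 residual and 3.43 prior degrees of freedom), with the Benjamini-Hochberg adjustment over 7926 genes. On simulated data the fit over 11526 probes with 200 changed in NIKtg Treg against WT Treg recovered 63% of the changes of 1 log2 unit and 89% of those of 2 units. In the data 19.7% of 7926 genes passed in that comparison, a larger share than was changed in the simulation. These recovery rates thus do not give the sensitivity of the fit over genes. A fold against a dimmer group detected on 0 or 1 of its 2 arrays is given as "at least", a bound for detection only.

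The integrin genes and the gene lists were chosen with earlier results of these data known. All integrin genes are named, as are from each list up to 4 genes past the threshold and 2 others per comparison, of which a subset is printed. Same-numbered arrays did not deviate together (correlations across genes between -0.02 and 0.14), so the numbers were not used as pairs. Alternatives changed the normalization, offset, filter, probe choice, arrays fitted, variance model, block and each array in turn. The labels and headers name no slide or batch. Precision is limited by the number of arrays.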

Additional observations from a re-analysis of the deposited data

Results flagged for a closer look

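The NIKtg minus WT difference was not the same in Treg and Tconv for any of the 7 integrin genes tested, by the test of the difference itself on the log2 scale, where 39% of all genes passed. Itgad gave -4.33, with -0.02 in Treg and 4.30 in Tconv, and ran between -5.33 and -3.32 with 1 array left out. Itgb1 gave -1.78, with -2.07 in Treg and -0.29 in Tconv. Itgb2 gave -1.74, with -0.86 in Treg and 0.89 in Tconv. Itga6 gave 1.40, with 0.32 in Treg and -1.08 in Tconv. Itgb7 gave 1.08, with 0.17 in Treg and -0.91 in Tconv. Itgav gave -1.32, with -0.65 in Treg and 0.67 in Tconv, and Itgae gave -1.07, with -1.36 in Treg and -0.30 in Tconv. The last 2 passed by a small margin, and each lost the call in 6 of 8 fits that left out 1 array, with Itgav between -1.74 and -0.89 and Itgae between -1.48 and -0.66 over the 8 fits. Groups of 2 arrays were too small to look for single arrays far from the others.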

How the results depend on the processing

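Over the settings tried for the 7 integrin genes, 565 values kept their direction and side of the threshold, 21 lost the call, 15 gained it and 12 changed sign. Among the calls kept in each alternative that gave a value were those of Itgb1 in NIKtg Treg and of Itgad, Itgb2, Itga6 and Itgb7 in NIKtg Tconv. Sign changes touched differences that did not pass on all arrays, among them Itga6 in Treg (0.32) and Itgae in Tconv (-0.30). For NIKtg Treg minus WT Treg, Itgad was 0.021 with the authors' normalized intensities, 0.063 with an offset of 50, 0.24 without WT Treg 2 and 0.99 without NIKtg Treg 2, ranging between -1.03 and 0.99 with arrays left out. Under median centring Itga6 was -0.039 and Itgb7 -0.053 there. Itgae in Tconv ran between -0.71 and 0.12 with arrays left out. For WT Treg minus WT Tconv, leaving out arrays gave -0.35 to 0.18 for Itgad, -0.25 to 0.13 for Itga6 (0.054 without WT Treg 2), -0.079 to 0.26 for Itgb2 and -0.16 to 0.028 for Itgb7.

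The count of integrin genes past the threshold was 3 for NIKtg Treg minus WT Treg and ran between 1 and 5 with arrays left out. It was 1 without either WT Treg array and 5 without NIKtg Treg 2. For WT Treg minus WT Tconv it was 1, and it was 2 with the authors' intensities, median centring, offset 50, only the groups compared, the trend and robust model, or 1 NIKtg Treg array left out, with Itgav as the gene added. For the difference between subsets it was 7. With no filter on dim probes the count was 5, since Itgae and Itgav lost the call. With probes detected on all 8 arrays the count was also 5, because that setting left Itgad and Itgav untested. The replicate block gave 6, losing Itgav, and changed no other integrin call. Itgb7 lost that difference under median centring (adjusted p = 0.0519). Only the groups compared could not be fitted for the difference.

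Over all genes, NIKtg Treg minus WT Treg gave 1559 calls, 2401 with every probe as its own feature and between 494 and 1596 with arrays left out. NIKtg Tconv minus WT Tconv gave 2376 (959 to 2503), the difference 3092 (1976 to 3075), WT Treg minus WT Tconv 1892 (979 to 1990, and 1252 under median centring) and NIKtg Treg minus NIKtg Tconv 3153 (1883 to 3171). Median centring moved the median of all genes to -0.27 for NIK in Treg, 0.09 in Tconv, -0.38 for the difference and -0.47 between the NIKtg subsets. The share of calls that were higher moved with it, at 8.2% in place of 52.3% for NIK in Treg, 68.0% in place of 42.8% in Tconv, 14.8% in place of 59.0% for the difference and 10.5% in place of 57.8% between the NIKtg subsets. The integrin genes called lower in NIKtg Treg lay below that shifted median, with Itgb1 at -2.47, Itgae at -1.63 and Itgb2 at -1.22. Which scaling fits these cells was not tested. Dim probes limit Itgav, Itgad in Treg and in WT Tconv, and the second Itgb1 probe, and levels of Itga4, Itgb3 and Itgal could not be read.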
